A study of Mus musculus with 6 samples.

Results

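Heat shock proteins and J-domain chaperones fold newly made proteins and refold or dispose of damaged ones. The set described here held 10 mouse genes, the small heat shock protein gene Hspb1, the HSP70 genes Hspa1a, Hspa1b, Hspa8 and Hspa9, the HSP90 genes Hsp90aa1 and Hsp90ab1, the J-domain chaperone genes Dnajb1 and Dnajc12, and the transcription factor gene Hsf1. The members were chosen by a reading of these same arrays in which their P38α-/- against P38α+/- differences in signal were known, so those differences, and any count of members past a threshold, are given as a description and not as tests. Members were found by their names on the array: 9 of the 10 genes had a probe of that name, with 11 probes out of 55681, and 8 genes had a probe bright enough to be compared, out of 14139 genes on the array that did. No probe carried the name Hspa1b.

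RNA came from CD71highTer119+ erythroblasts, nucleated red cell precursors sorted from bone marrow, of C57Bl/6 mice recovering from phenylhydrazine, a drug that destroys circulating red cells. The P38α+/- mice (labelled P38hetero) were Mx1-Cre P38α fl/+ and the P38α-/- mice (labelled P38ko) were Mx1-Cre P38α fl/fl, with 3 mice in each genotype and 1 array per mouse. The study's methods name male and female mice of 6 to 8 weeks, without the sex of each mouse on the arrays. Mice of both genotypes received 3 injections of 300 µg PolyIC, which switches on Mx1-Cre in blood-forming and other interferon-responsive cells. They then rested for 6 weeks and were sampled 4 days after 1 dose of phenylhydrazine at 100 mg/kg. There was no array without Cre, without PolyIC or without phenylhydrazine, so each value compares 2 genotypes under the same stress.

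In the heat shock response, HSF1 is held inactive until unfolded proteins draw chaperones away from it, and it then binds heat shock elements in the promoters of chaperone genes. J-domain proteins deliver clients to HSP70 and start its ATP cycle, nucleotide exchange factors end that cycle, and HSP90 with its co-chaperones finishes the folding of kinases and steroid receptors. HSPB1 lies at the end of the p38 kinase pathway in another sense, because it is phosphorylated by MK2, a kinase that p38α activates, and an RNA array does not read phosphorylation. In red cell precursors, HSP70 in the nucleus protects the transcription factor GATA1 from caspase cleavage, and mitochondrial HSP70, the product of Hspa9, takes part in the making of iron-sulfur clusters.

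Which transcript a probe can tell apart decides what its value means, so the probes of the HSP70 genes that have an open reading frame are shown first. The Hspa1a probe lay at chr17:35107117-35107176 of mm9, on the minus strand, and the array's annotation listed it for the transcripts of both Hspa1a and Hspa1b. Its signal is therefore the joint signal of both heat-inducible HSP70 genes. The middle of the 3 Hspa8 probes lay in chr9:40612755-40613050, a span of 296 bases for a probe of 60, so it crossed a splice junction. The end of the Hspa1a probe overlapped the start of that Hspa8 probe in the best ungapped match, with 15 of 23 bases identical, shown in capitals.
Hspa1a and Hspa1b probe: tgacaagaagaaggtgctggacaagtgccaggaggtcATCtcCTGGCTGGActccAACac
Hspa8 middle probe: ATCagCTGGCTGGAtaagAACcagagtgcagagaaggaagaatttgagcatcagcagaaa
The other Hspa8 probe with an open reading frame lay upstream at chr9:40611142-40611201 and spanned no intron. It is printed because its values spread more over the arrays than those of the other Hspa8 probes.
Hspa8 first probe: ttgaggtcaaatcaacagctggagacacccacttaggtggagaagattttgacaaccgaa
The Dnajc12 probe lay at chr10:62871211-62871270 on the plus strand and had a stop codon in each reading frame. Its first 30 bases are printed because this gene had the greatest difference of the set.
Dnajc12 probe, first 30 bases: gaccttccgtatgctctgtatcattgattc

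The promoter windows of Hspb1, Hspa1a, Hspa1b and Dnajb1 were in the RefSeq promoter table (GRCm38.p6), which gives 250 bases before and 50 after a gene's start. They were searched for GAANNTTC and TTCNNGAA, the 2 phases in which neighbouring heat shock units meet. Each of these motifs reads the same on both strands. The stretches that hold a match upstream of the start are shown with the match in capitals.
Hspb1 (chr5:135887790-135887841, plus strand): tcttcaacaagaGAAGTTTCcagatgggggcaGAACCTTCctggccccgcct
Hspa1a (chr17:34972241-34972272, minus strand): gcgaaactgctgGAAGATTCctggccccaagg
The Hspb1 window held 2 matches, starting 117 and 97 bases before the start. The Hspa1a window held 1, starting 104 bases before it, and so did the Hspa1b window, which was identical to it at 296 of 300 bases. Neither Dnajb1 window held a match. Of all 32851 windows in the table, 15.1% held at least 1 match to either motif and 1.96% held 2 or more. A match is a run of letters and not a measured binding site.

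Values are log2 of the scanner's processed signal minus that array's 75th percentile among probes that all 6 arrays measured well above background, so 0 is the level of a fairly bright probe and a step of 1 is a doubling. They are given in the order of replicates 1, 2 and 3. SEs and adjusted p come from a fit that takes the arrays as unpaired, unless the replicate block is named. A probe was compared when 1 genotype or both had it well above background on each of their 3 arrays, and a gene was read from its brightest such probe. In bulk RNA, fewer cells of a type and less RNA per cell cannot be told apart.

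Facts of the whole array set the frame. Between 28.9% and 53.0% of probes stood well above background per array, highest on P38α+/- replicate 1 and lowest on P38α-/- replicate 1, and P38α-/- replicate 3 was alone on a second slide. The targeted gene, Mapk14, which encodes p38α, was not lower on the arrays labelled P38α-/-. Its brighter probe read 0.32, 0.58 and 0.60 in P38α+/- and 0.75, 1.19 and 1.20 in P38α-/-, and its dimmer probe ran from -3.79 to -3.37 and from -4.45 to -2.86. For erythroblasts sorted after PolyIC, the paper reports excision of the locus and complete loss of p38α protein, which an RNA array does not read. Where these probes lie against the deleted part of the gene is not given in the sources used here, so directions below are those of arrays as labelled. All 10 late erythroid markers were well above background on every array, and their summed level, on the log2 scale, ran from 9.54 to 10.14 in P38α+/- and from 9.53 to 10.17 in P38α-/-. The summed level of 9 neutrophil markers ran from 6.76 to 8.14 in P38α+/- and from 5.87 to 6.36 in P38α-/-, with 7 of the 9 lower without overlap. The early erythroid markers summed to between -2.02 and -0.59 in P38α+/- and between -2.87 and -1.83 in P38α-/-. Their part in the values below was not tested.

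As a description, 1 of the 8 compared members, Dnajc12, lay past limma's threshold, a fold of 2 or more at an adjusted p no greater than 0.05. It entered the comparison through the P38α-/- arrays alone, since 1 P38α+/- array did not have the probe well above background. Over all compared genes 24 of 14139, or 0.17%, lay past the threshold, and 54 did with the replicate number as a block. For 3 of the 8 members the 2 genotypes stood apart with no overlap, with Dnajc12 and Hsp90ab1 higher and Hspa9 lower in P38α-/-. Over all compared genes this held for 27.1%, with P38α-/- higher for 7.45% and lower for 19.7%. The median difference of the members was 0.05 on the log2 scale, against -0.14 for all compared genes. The member counts rest on the contrast by which the set was chosen, and nothing is read from them.

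**Figure D1:**
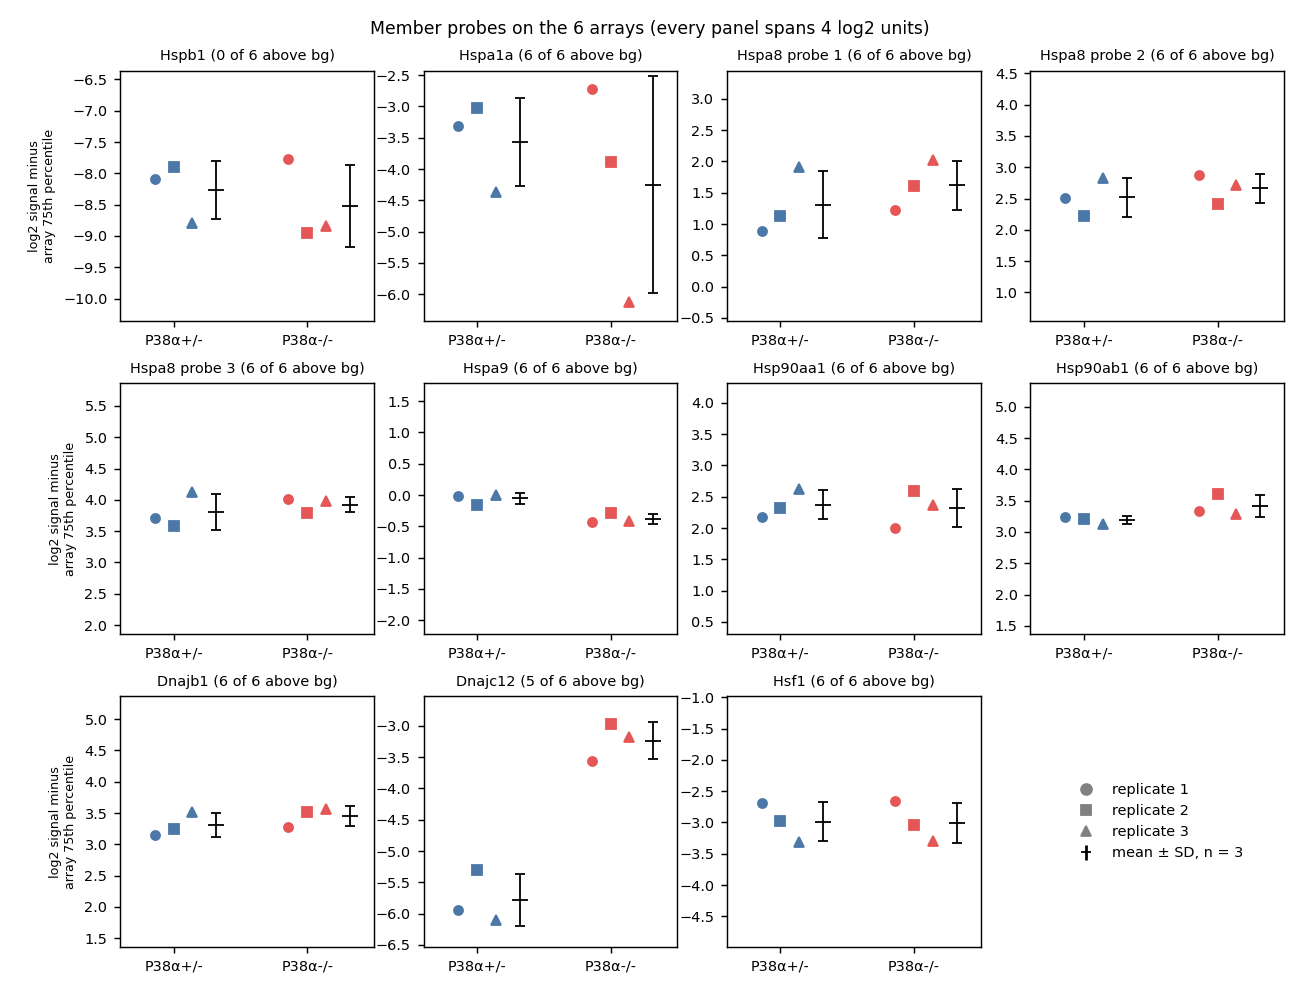
Signal of the 11 member probes on the 6 arrays, as log2 signal minus the array's 75th percentile, with 3 arrays per genotype, marker shape giving the replicate number and black bars giving mean ± SD. Every panel spans the same 4 log2 units. Dnajc12 separates the genotypes by a wide gap, Hspa1a is spread widely within both genotypes, and most other members lie within a narrow band.

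Dnajc12 encodes a J-domain protein that works as a co-chaperone of the aromatic amino acid hydroxylases such as phenylalanine hydroxylase. It read -5.93, -5.31 and -6.09 in P38α+/- and -3.56, -2.96 and -3.18 in P38α-/-. Every P38α-/- array was above every P38α+/- array. The means were -5.78 ± 0.42 and -3.23 ± 0.30 (SD, n = 3 each), a log2 difference of 2.54 with an SE of 0.27, which is 5.83-fold. The probe was not well above background on P38α+/- replicate 1, so the P38α+/- mean rests on 2 measured arrays and 1 dim value. Between arrays of the same replicate number the difference was 2.37, 2.34 and 2.92.

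The size of the Dnajc12 difference moved with the processing. It was 1.28 when the mean signal was corrected by normexp with an offset of 50, and 3.25 with quantile normalization. When 1 of the 6 arrays was left out it lay between 2.39 and 2.78, and in none of those 6 fits was it past the threshold.

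Hspa1a and Hspa1b encode the heat-inducible HSP70, and their joint probe read -3.32, -3.02 and -4.36 in P38α+/- and -2.72, -3.89 and -6.13 in P38α-/-. The genotypes overlapped, and the highest and the lowest array were both P38α-/-. The log2 difference was -0.68 with an SE of 0.86. It was 0.26 without P38α-/- replicate 3, the array on the second slide, and -2.16 when arrays were weighted by their quality, which gave that array the greatest weight, 3.99. The range over the 6 arrays was 3.41 log2 units. The SD within genotypes was 1.32, greater than that of 98.3% of all compared genes, for which the median was 0.28. The 2 arrays of replicate 3 were the lowest of their genotype for this probe. They were also the lowest for the summed early erythroid, neutrophil, monocyte or macrophage, B cell and T or NK cell markers. The B cell markers summed to between -2.88 and 0.28 in P38α+/- and between -4.19 and -2.43 in P38α-/-. The part of these cells in the Hspa1a value was not tested.

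Hspa8 encodes HSC70, the HSP70 made in unstressed cells, which also strips clathrin from coated vesicles. Its first probe read 0.88, 1.13 and 1.91 in P38α+/- and 1.23, 1.60 and 2.02 in P38α-/-. Its middle probe read 2.51, 2.22 and 2.83 in P38α+/- and 2.87, 2.41 and 2.72 in P38α-/-. The brightest probe, at chr9:40613223-40613282 and with a polyadenylation signal in its sequence, read 3.70, 3.59 and 4.13 in P38α+/- and 4.01, 3.79 and 3.97 in P38α-/-. The genotypes overlapped for all 3 probes. Between arrays of the same replicate number, P38α-/- was higher by 0.35, 0.47 and 0.10 for the first probe, while the third of these differences was below 0 for the middle probe (-0.11) and the brightest (-0.15). The log2 difference of the first probe was 0.31 with an SE of 0.33. With the replicate number as a block it stayed at 0.31, and the SE was 0.14. The middle probe differed by 0.15 with an SE of 0.22 and the brightest by 0.12 with an SE of 0.19. With the block the SE was 0.15 for each of these probes, so neither difference exceeded its SE. P38α+/- replicate 3 was the highest P38α+/- array for each of the 3 probes. Without that array the differences were 0.61, 0.30 and 0.28, and without P38α+/- replicate 2 the difference of the brightest probe was 0.01.

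Over the 6 arrays, the genes whose pattern was most like that of the brightest Hspa8 probe were Herc2, Otub2, Pim1, Chtop and Psmc4. Pearson's r ran from 0.96 to 0.99, the highest among other genes with a current RefSeq symbol. The ranking was drawn from 15526 probes well above background on all arrays, and probes without such a symbol were passed over. These values are a description over 6 arrays that share 1 scaling. No such list was made for Hspb1, because its probe was not measured above background.

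Hspa9 encodes the mitochondrial HSP70, and its probe lay at chr18:35097674-35097733 of mm9. It read -0.01, -0.15 and 0.00 in P38α+/- and -0.44, -0.29 and -0.41 in P38α-/-. Every P38α-/- array was below every P38α+/- array, by a log2 difference of -0.32 with an SE of 0.14. The SD within genotypes was 0.08, and only 3.85% of compared genes varied less. Relative to the median of all compared genes the difference was -0.18. With the 75th percentile taken over all probes the difference was 0.16 and the genotypes overlapped, and the median of all compared genes moved up with it by the same step.

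Of the HSP90 genes, Hsp90ab1 encodes the form made at all times and Hsp90aa1 the stress-inducible form. Hsp90ab1 read 3.24, 3.21 and 3.13 in P38α+/- and 3.33, 3.61 and 3.29 in P38α-/-. Every P38α-/- array was above every P38α+/- array, but the gap between the nearest arrays was small against the log2 difference of 0.22 and its SE of 0.16. Hsp90aa1 read 2.18, 2.33 and 2.62 in P38α+/- and 2.00, 2.59 and 2.37 in P38α-/-, with a log2 difference of -0.06 and an SE of 0.22. Its genotypes overlapped. The sign for Hsp90aa1 turned under the percentile of all probes, to 0.42, and under spike-in centring, to 0.11.

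Dnajb1 encodes HSP40, the J-domain partner of inducible HSP70. It read 3.16, 3.25 and 3.51 in P38α+/- and 3.27, 3.52 and 3.57 in P38α-/-, with a log2 difference of 0.15 and an SE of 0.17. The genotypes overlapped, although the P38α-/- array was the higher one at each replicate number, by 0.12, 0.28 and 0.06.

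Hsf1 read -2.69, -2.97 and -3.31 in P38α+/- and -2.66, -3.04 and -3.30 in P38α-/-, with a log2 difference of -0.01 and an SE of 0.24. The genotypes lay on top of each other, and arrays of the same replicate number differed by only 0.03, -0.07 and 0.01, against a range of 0.65 over all 6 arrays. The sign of so small a difference has no meaning, and it was 0.47 with the percentile of all probes.

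Hspb1 read between -8.80 and -7.91 in P38α+/- and between -8.95 and -7.77 in P38α-/-. Its probe, at chr5:136365366-136365425 of mm9, was not well above background on any of the 6 arrays, so no difference is given for it.

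**Figure D2:**
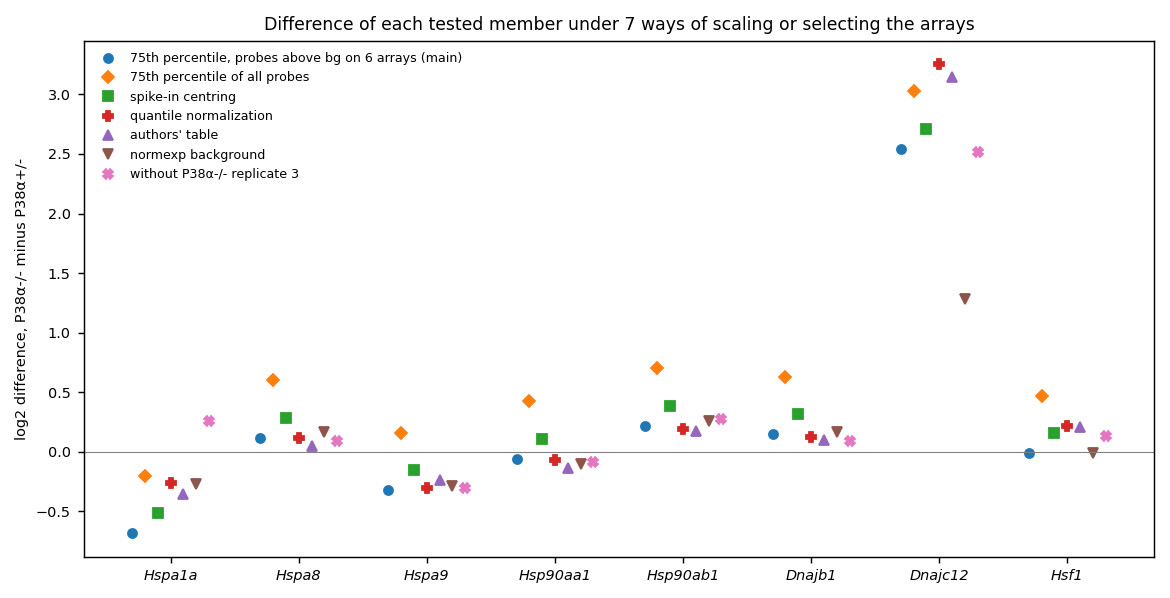
Log2 difference, P38α-/- minus P38α+/-, of the 8 compared members under 7 ways of scaling the signals or selecting arrays. Dnajc12 stays above 1 under each of them, Hspa1a crosses 0 without P38α-/- replicate 3, and the percentile of all probes raises every member by the same step.

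The scaling step shifted all genes together. The median difference of all compared genes was -0.14 in the scaling used here, 0.34 with the percentile of all probes, 0.03 with spike-in centring and 0.05 with quantile normalization. The first 3 of these differ by a constant for each array, so a member's difference relative to the median compared probe is the same in them, at -0.52 for Hspa1a, -0.16 for Hspa9 and 2.70 for Dnajc12. With quantile normalization these became -0.32, -0.36 and 3.20. Under spike-in centring Dnajc12 was the only member whose genotypes did not overlap, and of all compared genes 0.382% were then higher and 2.99% lower without overlap.

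A list of 124 further chaperone genes placed the members in their network, with 97 compared. This list too was made with earlier results of these data known, so its counts, shares and adjusted p are a description. None of the 97 passed limma's threshold, and the smallest adjusted p was 0.0834. With p taken unadjusted at a threshold of 0.05, 13 of the 97 passed, or 13.4%, against 20.1% of all compared genes, and 2 of the 13 had a fold of at least 2. The genotypes stood apart for 25.8% of the 97 genes, close to the 27.1% of all compared genes. Of the 97, 11 were higher and 14 lower in P38α-/-. That is 11.3% and 14.4%, against 7.45% and 19.7% of all compared genes. Of the 27 genes not compared, 12 were at background on all 6 arrays with their brightest probe, among them Hsf3, Hsf4, Hsf5 and Hspb8.

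**Figure D3:**
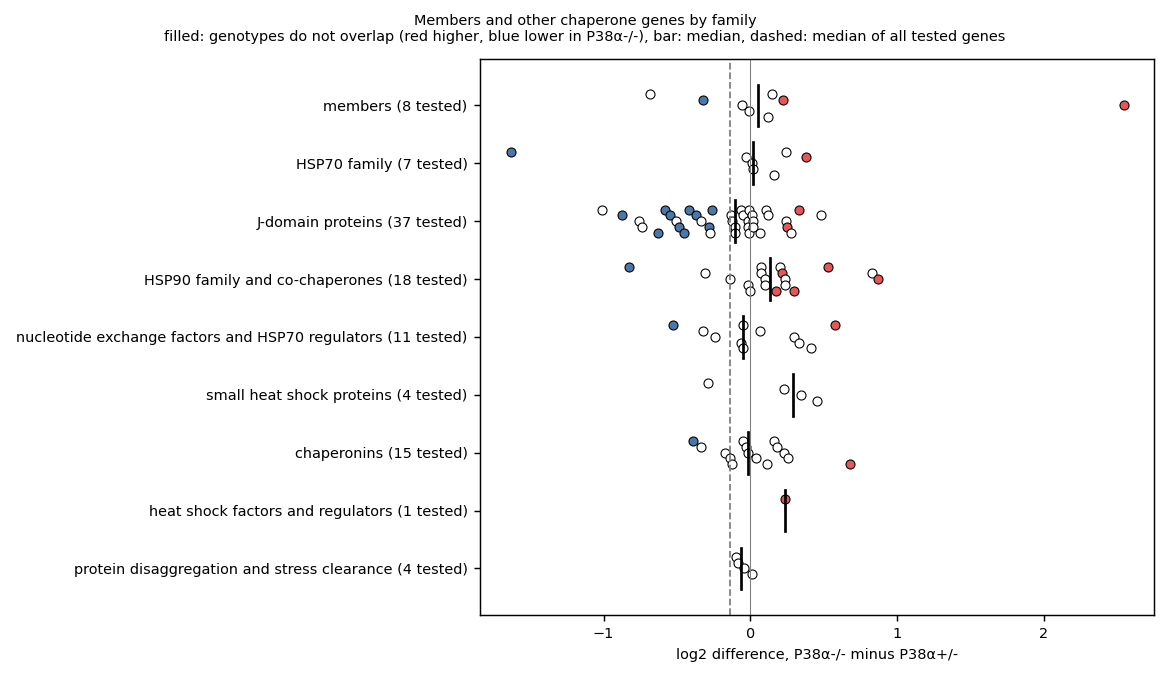
Log2 difference, P38α-/- minus P38α+/-, of the members and of 97 other chaperone genes by family. Filled points are genes whose genotypes do not overlap, black bars family medians, and the dashed line the median of all compared genes at -0.14. Most families lie around that line or just above it, and filled J-domain points lie mostly to the left and filled HSP90 co-chaperone points mostly to the right.

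The HSP90 family and its co-chaperones had more genes higher than lower in P38α-/-. Of 18 compared, 5 were higher in P38α-/- without overlap, or 27.8% against 7.45% of all genes, 1 was lower, and the family median was 0.14. The family was listed with earlier results known, so this share is a description. With the percentile of all probes 8 were higher, or 44.4% against 26.3% of all compared genes, and 0 lower. Under spike-in centring 0 of the 18 stood apart. Unc45a, a co-chaperone that folds myosin heads, read -0.97, -0.81 and -0.67 in P38α+/- and 0.18, -0.06 and 0.05 in P38α-/-, a log2 difference of 0.87 with an SE of 0.16 (limma, adjusted p = 0.0876). Fkbp4, the FKBP52 partner of steroid receptors, read -2.96, -2.93 and -2.85 against -2.38, -2.24 and -2.54, a log2 difference of 0.53 with an SE of 0.15 (limma, adjusted p = 0.147). Ahsa1, the activator of the HSP90 ATPase, read 1.93, 1.82 and 2.00 against 2.26, 2.17 and 2.21, a log2 difference of 0.30 with an SE of 0.14 (limma, adjusted p = 0.277). Cdc37, which brings kinases to HSP90, and Nudcd3 made up the 5.

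The 1 lower gene was Fkbp5, which encodes FKBP51, a co-chaperone that opposes FKBP52 at the glucocorticoid receptor and is itself a glucocorticoid-induced gene. It read -3.23, -3.02 and -3.23 in P38α+/- and -4.04, -4.02 and -3.91 in P38α-/-, a log2 difference of -0.82 with an SE of 0.15. This was the smallest adjusted p of the 97 genes, and it missed the threshold. Fkbp4 and Fkbp5 thus stood on opposite sides of 0 on the same arrays, each with no overlap. Fkbp8, also an FKBP gene of this list, was higher by 0.83 with an SE of 0.32, and its genotypes overlapped.

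The J-domain proteins held 10 of the 14 lower genes. Of 37 compared, 10 were lower in P38α-/- without overlap, or 27.0% against 19.7% of all genes, and 2 were higher. With the percentile of all probes the split was 0 lower and 7 higher, or 18.9% higher, where all compared genes had 4.8% lower and 26.3% higher. Dnajb9, whose ER protein ERdj4 works with the HSP70 of that compartment, read -3.84, -3.79 and -4.11 in P38α+/- and -5.03, -4.82 and -4.52 in P38α-/-, a log2 difference of -0.88 with an SE of 0.19 (limma, adjusted p = 0.106). Dnajb14, Dnajc21, Dnajb3 and Dnajc16 had log2 differences between -0.63 and -0.42, with adjusted p between 0.156 and 0.259 by limma. The family median was -0.11, close to that of all genes.

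Among the named J-domain genes the probes of Dnajc10 disagreed. The 2 compared probes of Dnajc10, an ER reductase with a J-domain, differed in sign at 0.25 and -0.76, with no overlap of the genotypes for either. Both compared probes of Dnajb9, Dnajb14 and Dnajc21 had lower means in P38α-/-. The dimmer Dnajb9 probe overlapped between genotypes and was well above background on only 1 of the 3 P38α-/- arrays. The dimmer Dnajb14 probe did not overlap and was well above background on 2 of those 3. Gak, a J-domain kinase that uncoats clathrin with HSC70, was higher at 0.33 with an SE of 0.16.

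In the HSP70 family 7 genes were compared, 1 higher and 1 lower without overlap. Each is 14.3% of the family, against 7.45% higher and 19.7% lower over all compared genes. Hsph1, an HSP110 that exchanges nucleotide on HSP70, read -0.91, -0.90 and -0.45 in P38α+/- and -0.32, -0.44 and -0.36 in P38α-/-, a log2 difference of 0.38 with an SE of 0.18 (limma, adjusted p = 0.284). The dimmer compared probe of Hsph1 differed by 0.14 with an SE of 0.21, and its genotypes overlapped. Hspa2 had the most negative log2 difference of the network, -1.63 with an SE of 0.54, but only 1 of the 3 P38α-/- arrays had it well above background. Hspa5, the HSP70 of the ER, differed by 0.02 with an SE of 0.21, and Hspa4 by 0.01 with an SE of 0.17.

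Nucleotide exchange factors and regulators of HSP70 numbered 11, with 1 gene apart in each direction. Each is 9.09% of the 11, against 7.45% higher and 19.7% lower over all compared genes. Bag2, which also restrains the ubiquitin ligase CHIP, read -0.95, -1.46 and -0.84 in P38α+/- and -0.51, -0.56 and -0.44 in P38α-/-, a log2 difference of 0.58 with an SE of 0.20 (limma, adjusted p = 0.186). Bag5 was lower, at -0.53 with an SE of 0.22. Its other compared probe was at -0.24 with an SE of 0.16, and there the genotypes overlapped. Of 15 compared chaperonin genes, 1 was higher and 1 lower without overlap. Each is 6.67% of the 15, against 7.45% higher and 19.7% lower over all compared genes. The higher one, Cct7, a subunit of the ring that folds actin and tubulin, read 2.65, 2.44 and 2.81 against 3.29, 3.17 and 3.48, a log2 difference of 0.68 with an SE of 0.17 (limma, adjusted p = 0.127). The lower one, Pfdn2, differed by -0.39 with an SE of 0.18. The mitochondrial pair Hspd1 and Hspe1 differed by -0.14 and -0.03, with SEs of 0.19 and 0.20. The 4 compared small heat shock proteins and the 4 compared genes of protein disaggregation and stress clearance all overlapped. The 1 compared regulator of heat shock factors, Hsbp1, which binds the trimer of HSF1, was higher without overlap, at 0.24 with an SE of 0.15.

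**Figure D4:**
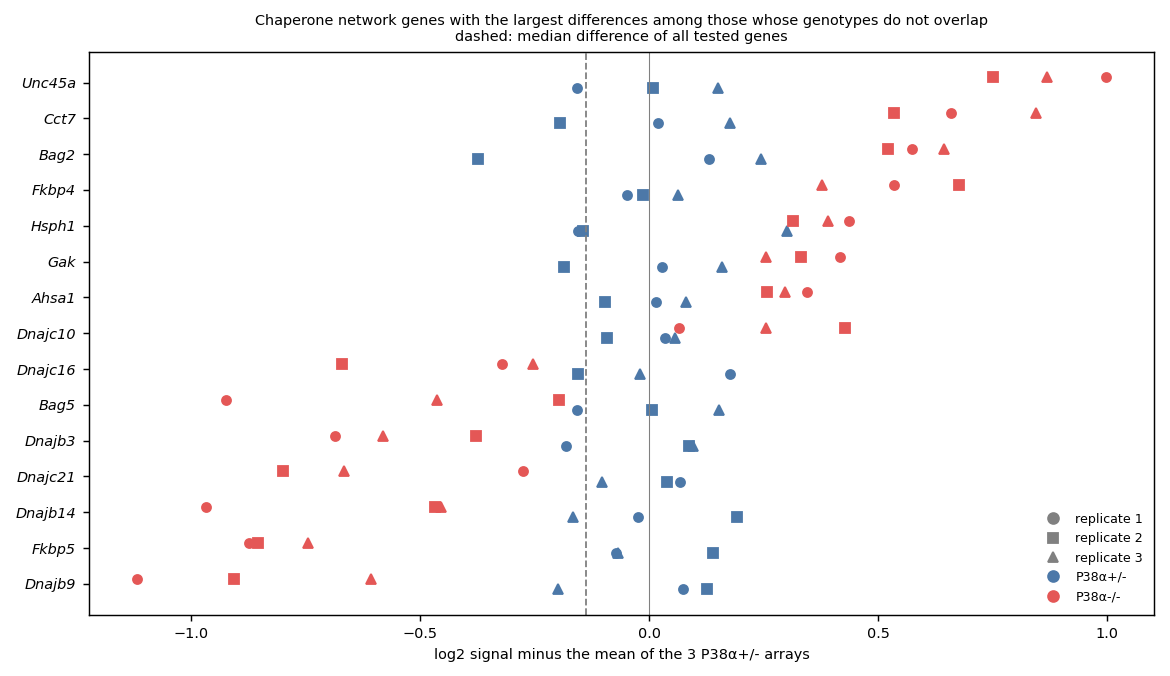
Signal of 15 chaperone network genes on each array, as log2 signal minus the mean of the P38α+/- arrays, 8 higher and 7 lower in P38α-/-, from those with the greatest differences among genes whose genotypes do not overlap. Blue points are P38α+/- and red points P38α-/-. Unc45a, Fkbp4 and Fkbp5 show gaps between genotypes wider than the spread within them.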

How the data were processed

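The 6 arrays were 1-colour Agilent mouse arrays read by the authors with Agilent Feature Extraction 10.7.3.1 from 10 ng of T7-amplified, Cy3-labelled RNA. The authors deposited scanner intensity per spot, background-subtracted in the processed signal, and a normalized intensity table whose method is not given in the sources used here. The gene positions are those of mm9. Spots marked as outliers were left out, spots of 1 probe were averaged, and log2 signals were centred on the 75th percentile of each array among the 15527 probes that all 6 arrays measured well above background. Differences were fitted by limma 3.58.1 (R 4.3.3) over the 18764 compared probes with Benjamini-Hochberg adjustment, checked first on simulated data. Depth does not apply to arrays, and the number of arrays limits the precision. Replicates were separate mice. Python 3.11.15 made the tables.

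The members and the chaperone lists were chosen with earlier results of these data known. Named network genes were those past the threshold, and otherwise the 8 greatest differences in each direction among genes well above background on all arrays whose genotypes did not overlap. Of these, 1 lower gene is not reported here. Genes cited beyond that rule, such as Hspa2, Hspa5 and Hsbp1, were picked after their values were seen. Symbols came from the array's accessions through RefSeq for 27509 probes, a current symbol for 3549 and a synonym for 404, and 24219 kept the name on the array. Marker lists of early and late erythroid, neutrophil, monocyte or macrophage, B cell, T or NK cell and megakaryocyte or platelet genes were summed per array. The last of these ran from 1.10 to 1.58 in P38α+/- and from 1.36 to 1.78 in P38α-/-, the monocyte list from -0.44 to 0.85 and from -1.14 to -0.10, and the T or NK list from -0.50 to 1.39 and from -0.91 to -0.54.

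The design text on the arrays speaks of pairs, and deviations from the genotype means had correlations of 0.39, 0.24 and 0.39 for arrays sharing a replicate number, and no more than 0.06 for arrays that did not. On the design text the samples were taken as paired by number, with the unpaired fit kept as the main one as in the study's methods. The SEs given above therefore leave the pairing out, except where the block is named. With the replicate number as a block the SE of every compared member probe was smaller. It was then 0.11 for Hsf1, 0.50 for Hspa1a and 0.17 for Dnajc12. P38α-/- replicate 3 was the only array of its slide, so blocking on slide has the effect of dropping that array. The alternatives tried were other scalings, the normexp correction, other filters on dim probes, the authors' table, the replicate and slide blocks, array weights, the methods' t-test, averaging the probes of a gene and leaving out each array. The sequences of the other members' promoters and all proteins were not used here.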

Additional observations from a re-analysis of the deposited data

How the results depend on the processing

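The count of genes called moved with nearly every choice. From 24, with 79.2% higher in P38α-/-, it became 661 with the percentile of all probes (58.4% higher), 14 with quantile normalization (92.9%), 7 with spike-in centring (28.6%), 11 with normexp (all higher), 69 with probes well above background on all arrays (73.9%), 10 in the authors' table and 2 by the methods' t-test after Benjamini-Hochberg (all higher in both), 1470 with array weights (15.7% higher), and 0 with no filter on dim probes or with a slide block. The methods' t-test was run on the scaling and probe filter used here, with a fold of means. The study used its own normalized values and a fold of medians, so the count is not that of its own procedure. The paired fit, with the replicate block, called 54 genes (24.1% higher), and no member or network call changed with it. Leaving out 1 array gave between 0 and 51 genes, and 0 without P38α+/- replicate 2 or without any P38α-/- array.

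The count of members past the threshold rests on the contrast that chose them and gives no support under any setting. It was 1, Dnajc12, here and with the percentile of all probes, array weights, the replicate block and the mean over a gene's probes. It was 0 under quantile normalization, spike-in centring, normexp, no filter, probes well above background on all arrays (where its probe was not compared), the authors' table, the slide block and the methods' t-test, and 0 in each of the 6 fits that left out an array. Its difference was above 0 in each fit that held it. The network count of 0 became 2 with the percentile of all probes, namely Unc45a and Fkbp8, and 3 with array weights, namely Hspa2, Dnajc7 and Fkbp8, and stayed 0 in every fit without 1 array.

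The differences of named network genes turned sign for Dnajc10 with the mean over its probes (-0.26) and for Dnajc16 with the percentile of all probes (0.0662). The counts without overlap moved with those of all genes. All compared genes had 26.3% higher and 4.8% lower with the percentile of all probes, and 13.7% and 9.23% with quantile normalization. In those scalings the J-domain proteins had 7 higher and 0 lower, and 4 and 3, and the HSP90 list 8 and 0, and 5 and 1. With spike-in centring 0.382% of all genes were higher and 2.99% lower, and no network gene stood apart. In the authors' table, P38α-/- replicate 2 matched its scanner signal at a rank correlation of 0.90, while the other 5 columns matched theirs at 1.00. The causes of these changes were not tested.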
